A study of Zea mays with 6 samples.

Results

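ZCN1, MADS14 and SPL14 are maize genes of the FT/TFL1, MADS-box and SBP-box families, which act in the change from vegetative to reproductive growth. They are 3 of the 5546 genes in the deposited node table and were taken by gene ID (GRMZM2G092008, GRMZM2G137510 and GRMZM2G160917). All genes of the table, these included, were selected on the measured difference in FPKM between wild type and mutant, so the levels of the 3 genes by genotype are a description and carry no test. FPKM is an expression level, a count of sequenced fragments corrected for the length of the transcript and the size of the library.

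FT-like and TFL1-like proteins are small relatives that compete for bZIP factors of the FD type at the shoot apex, FT-like proteins promoting flowering and TFL1-like proteins delaying it. ZCN1 belongs to the TFL1-like branch in maize, and DLF1 (delayed flowering1) is the maize FD-type bZIP factor. MADS-box factors of the AP1/FUL class give meristems an inflorescence or floral identity. SBP-box factors promote the adult phase, and many of them, including the product of unbranched2, are held down in the juvenile phase by the microRNA miR156.

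The study asked which genes differ in expression in the nodes of the dwarf mutant zmte1-2. WT was the inbred line B73. The mutant, recessive and EMS-induced, was backcrossed to B73 and carries a premature stop codon in the first exon of ZmTE1 (TERMINAL EAR 1), which encodes an RNA-binding protein of the Mei2 type. Each genotype had 3 libraries from field-grown plants of 28 days, from nodes alone according to the methods and from nodes with internodes according to the labels. The number of plants behind a library is not given, nor whether the library numbers mark node positions. The spread between libraries may thus be technical or one between nodes, and the mutant is represented by a single allele.

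The summed FPKM of the 5546 genes ranged from 74348 to 88628 per library, and the depth in reads is unknown. ZmTE1 itself (GRMZM2G085113) was low in every library, at 0.51, 1.19 and 1.0 FPKM in WT 1, 2 and 3 and at 0.33, 0.1 and 0.49 FPKM in zmte1-2 1, 2 and 3. A stop codon need not change the transcript level, so these values do not check the labels. Across genes, zmte1-2 2 correlated with zmte1-2 1 and 3 at r = 0.782 and 0.699, whereas those 2 libraries correlated at 0.944. WT 1 correlated with WT 2 and 3 at 0.870 and 0.894, against 0.948 between WT 2 and 3. The meristem gene KN1 (GRMZM2G017087, knotted-1), a defining gene of shoot meristem and young stem, was present in all 6 libraries, at 75.3 to 142.7 FPKM in WT and 17.0 to 81.6 FPKM in zmte1-2. In bulk tissue, fewer cells that express a gene and less of its RNA per cell cannot be told apart.

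ZCN1 was higher in zmte1-2 and was the most abundant of the 3 genes in every library. The deposited position is chromosome 3 from 231199114 to 231200263 on the minus strand, with 2 transcripts, 66.0 Mb from ZmTE1 on the same chromosome. No source used here gives the genome build behind the positions. ZCN1 stood at 34.66, 49.09 and 41.96 FPKM in WT 1, 2 and 3, and at 170.15, 103.59 and 121.53 FPKM in zmte1-2 1, 2 and 3. The groups did not overlap, and the lowest mutant library was 2.11 times the highest WT library. The WT libraries averaged 41.9 ± 7.21 FPKM and the zmte1-2 libraries 131.8 ± 34.4 FPKM (SD, n = 3 each), a ratio of 3.14. On the log2(FPKM + 0.5) scale, on which all fold changes here are given as zmte1-2 minus WT, the difference was 1.62 with an SE of 0.25. The deposited orthology annotation files ZCN1 under FLOWERING LOCUS T, the name of the family's flowering promoter in Arabidopsis.

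MADS14 was close to 0 in zmte1-2. It lies on chromosome 10 from 17785901 to 17791457 on the plus strand, with 3 transcripts. The deposited description is MADS-box transcription factor 14, a name known from rice for an AP1/FUL-class factor, while RefSeq lists the gene with the synonym MADS34. MADS14 stood at 13.01, 7.8 and 7.77 FPKM in WT 1, 2 and 3, and at 0.49, 0.22 and 0.94 FPKM in zmte1-2 1, 2 and 3. WT 1 stood above the other WT libraries, and even the lowest WT library was 8.27 times the highest mutant library. The WT libraries averaged 9.53 ± 3.02 FPKM and the zmte1-2 libraries 0.550 ± 0.364 FPKM (SD, n = 3 each), a ratio of 17.3. The log2 difference was -3.27 with an SE of 0.37. It is the most sensitive of the 3 values to the pseudocount, at -4.01 with 0.1 FPKM added and -2.75 with 1 FPKM added, because the mutant levels lie near the amount added.

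SPL14 was lower in zmte1-2 but remained measurable in each library. It lies on chromosome 1 from 188215376 to 188219483 on the minus strand, with 3 transcripts, and RefSeq names it ub2 (unbranched2), a gene whose loss together with that of its relative unbranched3 reduces tassel branching in maize. SPL14 stood at 16.19, 11.8 and 16.99 FPKM in WT 1, 2 and 3, and at 4.35, 1.33 and 4.22 FPKM in zmte1-2 1, 2 and 3. Library zmte1-2 2 was the lowest, and the lowest WT library was 2.71 times the highest mutant library. The WT libraries averaged 14.99 ± 2.79 FPKM and the zmte1-2 libraries 3.30 ± 1.71 FPKM (SD, n = 3 each), a ratio of 4.54. The log2 difference was -2.14 with an SE of 0.49.

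**Figure D1:**
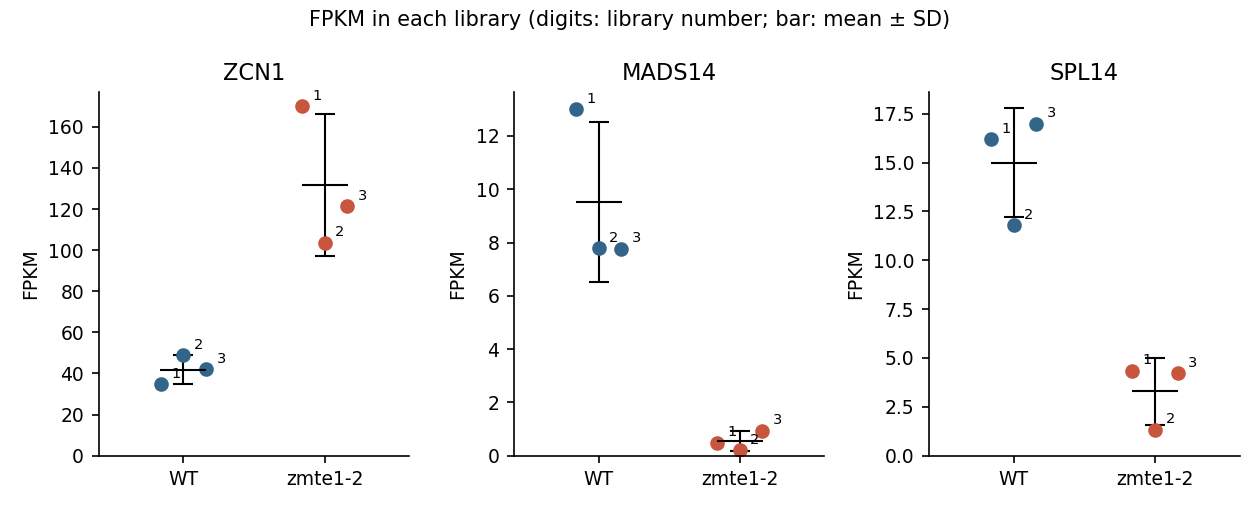
FPKM of ZCN1, MADS14 and SPL14 (linear axes from 0, a scale for each gene) in the 3 WT and 3 zmte1-2 libraries; points are libraries with their number, and the bar is the mean ± SD. The groups do not overlap for any of the 3 genes, as for 48.8% (lower in zmte1-2) and 11.4% (higher) of the 5546 genes. Library zmte1-2 2 is the lowest mutant library for each of the 3.

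The 3 genes differed in how far libraries of a genotype spread. The coefficient of variation in WT was 17.2% for ZCN1, 18.6% for SPL14 and 31.7% for MADS14. In zmte1-2 it was 26.1% for ZCN1, 51.7% for SPL14 and 66.1% for MADS14, so this coefficient was larger in the mutant for each gene. The SD in FPKM was larger in the mutant for ZCN1 only. It was smaller for SPL14 (1.71 against 2.79 in WT) and MADS14 (0.364 against 3.02), whose mutant means were low. Relative to the mean of the mutant libraries, zmte1-2 2 lay lower by a log2 of -0.31 for ZCN1, -0.49 for MADS14 and -0.92 for SPL14. Without zmte1-2 2 and WT 1, the libraries that stand apart, the log2 differences were 1.65 for ZCN1, -2.79 for MADS14 and -1.62 for SPL14.

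In WT the order of the mean levels was ZCN1, SPL14, MADS14. ZCN1 lay clear of both others, while the lowest SPL14 value, 11.8 FPKM, was below the highest MADS14 value, 13.01 FPKM. Within each WT library SPL14 was nonetheless the higher of the pair, by 1.24, 1.51 and 2.19 times in WT 1, 2 and 3. In zmte1-2 the order was the same and no ranges overlapped. The ratio of SPL14 to MADS14 was 8.88, 6.05 and 4.49 in zmte1-2 1, 2 and 3. The ratio of ZCN1 to SPL14 was 2.14, 4.16 and 2.47 in the WT libraries and 39.1, 77.9 and 28.8 in the mutant libraries. ZCN1 to MADS14 ran from 2.66 to 6.29 in WT and from 129 to 471 in zmte1-2. Ratios within a library do not depend on how libraries are scaled against each other.

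Scaling matters for the differences between genotypes because most listed genes were lower in the mutant. Over the 3987 genes with at least 1 FPKM in at least 3 libraries the median log2 difference was -1.08. Relative to that median, ZCN1 stood at 2.70, MADS14 at -2.19 and SPL14 at -1.06. When the libraries were rescaled by the median of ratios over these genes, the median moved to -0.08, and the log2 differences were 2.79, -2.40 and -1.06. All 3 kept their sign. The table holds called genes only, so its median is no neutral reference, and which scale is nearer to the tissue was not tested. In order of size, MADS14 was number 34 from the largest fall among the 3987 genes, SPL14 number 309, and ZCN1 number 239 from the largest rise.

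**Figure D2:**
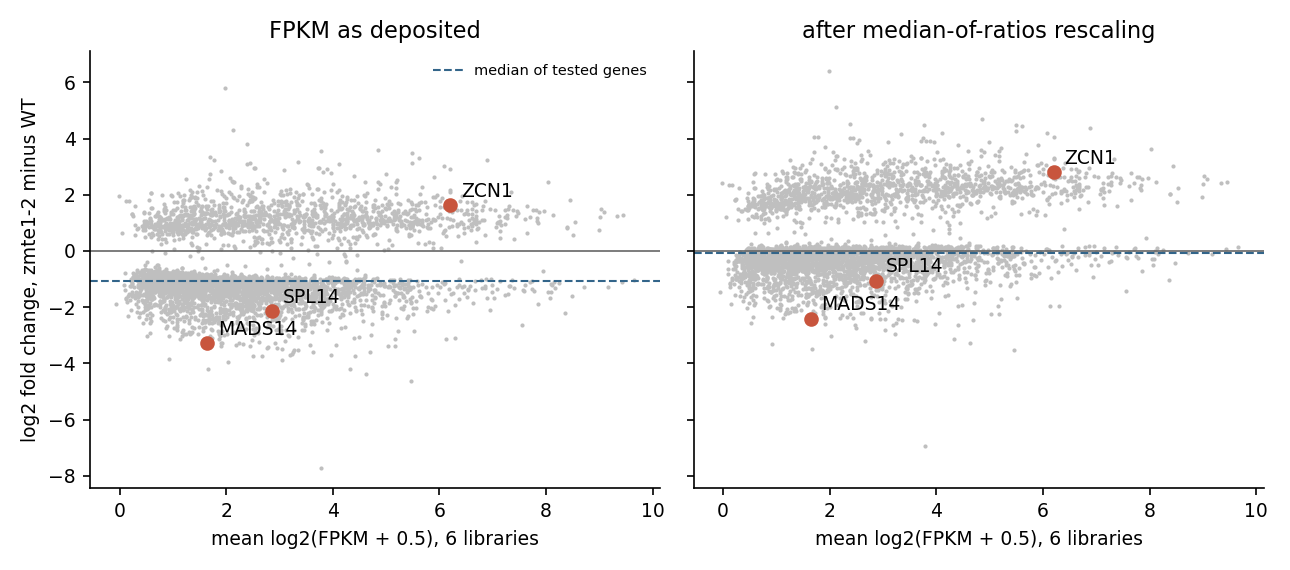
Log2 fold change (zmte1-2 minus WT) against mean log2(FPKM + 0.5) over the 6 libraries for the 3987 genes above the FPKM minimum (grey points), as deposited on the left and after median-of-ratios rescaling on the right; the dashed line is the median of these genes. The rescaling moves the median from -1.08 to -0.08 and SPL14 from -2.14 to -1.06, while ZCN1 stays above 0 and MADS14 and SPL14 stay below 0.

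Groups of libraries that do not overlap were common in this table. Of the 5546 genes, 48.8% were lower in every mutant library than in every WT library, and 11.4% were higher in every one. MADS14 and SPL14 belong to the first set and ZCN1 to the second, and nothing is read from this because the table was selected on the same contrast. By limma, at a Benjamini-Hochberg adjusted p under 0.05 over the 3987 genes, 34.2% were lower and 6.02% higher. At an unadjusted p under 0.05, 53.5% were lower and 11.1% higher. The share of false calls is not given by these adjusted values, since the genes had been selected on the same libraries.

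Of the FT/TFL1 family, 3 genes other than ZCN1 were listed, all TFL1-like in maize, and they did not move together. ZCN4 (GRMZM2G075081) was at 1.07, 1.79 and 2.16 FPKM in WT and at 0.11, 0.51 and 0.33 FPKM in zmte1-2, and fell (limma log2 fold change -1.41 with an SE of 0.32, adjusted p = 0.0231). ZCN6 (GRMZM2G132880) was at 1.14, 1.57 and 1.36 FPKM in WT and at 0.55, 0.43 and 0.34 FPKM in zmte1-2, and fell (-0.98, SE 0.24, limma adjusted p = 0.0269). Both were scarce beside ZCN1, and after median-of-ratios rescaling neither passed, with log2 fold changes of -0.77 and -0.28. In all, 2 of 3 tested family members fell and 0 rose by limma, beside 34.2% and 6.02% of all tested genes. At an unadjusted p under 0.05, 2 were lower and 0 higher, beside 53.5% and 11.1%.

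ZCN3 (GRMZM2G338454, chromosome 10) was the family member nearest to ZCN1 in level. It stood at 44.58, 88.49 and 59.56 FPKM in WT and at 202.11, 77.65 and 109.57 FPKM in zmte1-2. The groups overlapped, because zmte1-2 2 lay below WT 2, and the gene did not pass (limma log2 fold change 0.95 with an SE of 0.51, adjusted p = 0.132; 2.12 and 0.0585 after rescaling). ZCN1 was below ZCN3 in all 3 WT libraries, at 0.778, 0.555 and 0.705 of its level, and stood at 0.842, 1.33 and 1.11 of it in zmte1-2 1, 2 and 3. ZCN1 and ZCN3 are related sequences, and how reads that match both were counted is not given, so their levels are uncertain to that degree.

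The MADS-box list held 7 genes other than MADS14, of which 3 passed the FPKM minimum. By limma 2 of the 3 fell and 0 rose, beside 34.2% and 6.02% of all tested genes, and 3 were lower and 0 higher at an unadjusted p under 0.05, beside 53.5% and 11.1%. The gene m15 (GRMZM2G553379, RefSeq synonym MADS15) was at 2.82, 4.11 and 1.99 FPKM in WT and at 0.16, 0.0 and 1.38 FPKM in zmte1-2, and fell (limma log2 fold change -1.98 with an SE of 0.54, adjusted p = 0.0337). The gene m28 (GRMZM2G147716, RefSeq synonym MADS67) was at 20.84, 21.05 and 12.82 FPKM in WT and at 5.93, 3.75 and 9.42 FPKM in zmte1-2, and fell (-1.50, SE 0.46, limma adjusted p = 0.0426). The call for m28 was lost with no FPKM minimum, at an adjusted p of 0.0501, and neither gene passed after rescaling, at -1.31 and -0.38.

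The most abundant MADS-box gene of the table, described as MADS-box transcription factor 26 (GRMZM2G105387), was at 48.73, 41.74 and 30.85 FPKM in WT and at 15.05, 25.56 and 12.02 FPKM in zmte1-2. It did not pass (limma log2 fold change -1.23 with an SE of 0.44, adjusted p = 0.0563). MADS14 stood lower beside m28 in each mutant library than in any WT library. It was at 0.624, 0.371 and 0.606 of the level of m28 in WT and at 0.0826, 0.0587 and 0.0998 of it in zmte1-2. Beside m15 this was not so. MADS14 was at 4.61, 1.90 and 3.91 times the level of m15 in WT 1, 2 and 3, at 3.06 times in zmte1-2 1, within the WT range, and at 0.681 times in zmte1-2 3, while m15 was listed at 0 in zmte1-2 2 and gave no ratio there. ZAG5 (GRMZM2G003514) had the opposite order, at 0.68, 0.49 and 0.28 FPKM in WT and at 1.64, 0.91 and 2.72 FPKM in zmte1-2, but was below the FPKM minimum and was not tested.

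The SBP-box list held 4 genes other than SPL14, of which 1 could be tested. This was ub3 (unbranched3, GRMZM2G460544, chromosome 4), the relative that acts with unbranched2 in maize tassel branching, described in the table as another SPL14. It stood at 15.69, 9.3 and 13.44 FPKM in WT and at 4.54, 1.02 and 6.73 FPKM in zmte1-2. The groups did not overlap, yet the gene did not pass (limma log2 fold change -1.77 with an SE of 0.63, adjusted p = 0.0555, and -0.70 after rescaling). By limma 0 of 1 was thus called, beside 34.2% lower and 6.02% higher over all tested genes. At an unadjusted p under 0.05, 1 was lower, beside 53.5% of all tested genes.

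SPL14 and ub3 had like levels library by library. SPL14 was at 1.03, 1.27 and 1.26 times the level of ub3 in WT and at 0.958, 1.30 and 0.627 times in zmte1-2. In zmte1-2 2 both were at their lowest, by a log2 of -0.92 and -1.33 from the mutant mean. Reads shared by the 2 related genes could be split between them, so the separate levels are uncertain. The other listed SBP-box genes were scarce. One of them, tga1 (GRMZM2G101511), the SBP-box gene of the teosinte glume, was at 2.1, 1.05 and 0.6 FPKM in WT and at 0.25, 0.55 and 0.27 FPKM in zmte1-2. The tga1-like gene AC233751.1_FG002 was at 0.96, 0.31 and 1.13 FPKM in WT and at 0.26, 0.59 and 0.13 FPKM in zmte1-2, with groups that overlapped.

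**Figure D3:**
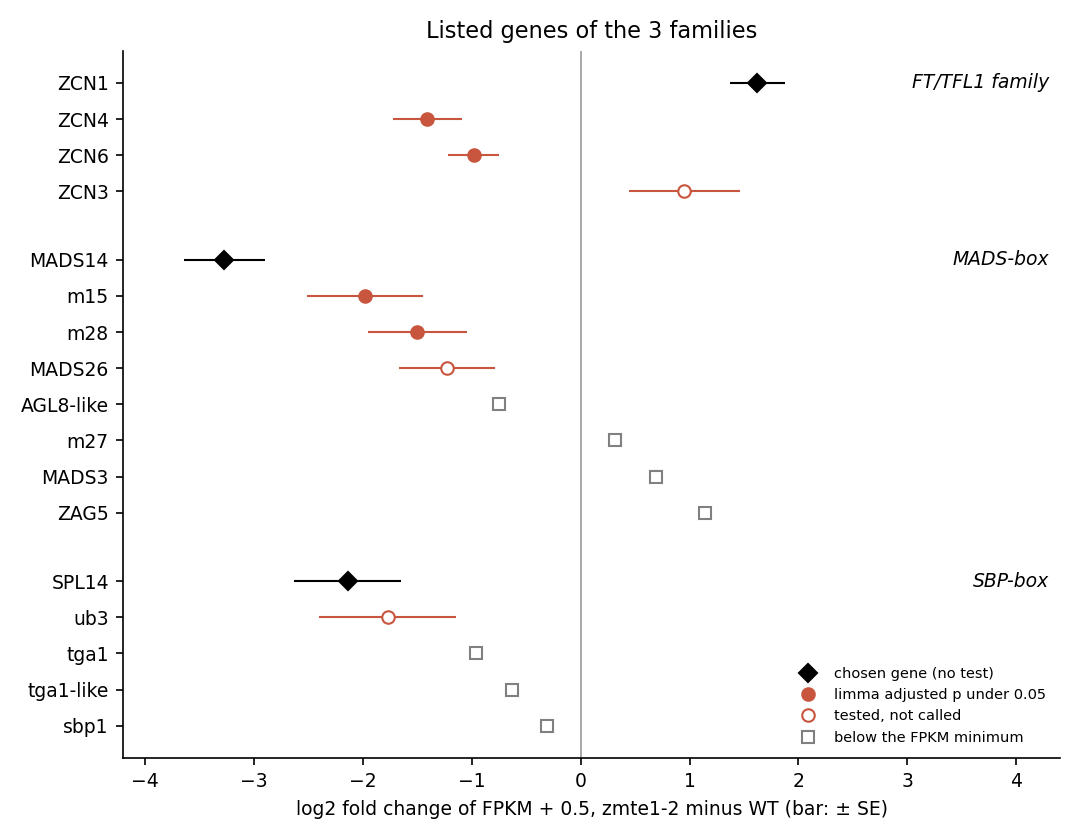
Log2 fold change (zmte1-2 minus WT, on FPKM + 0.5; bars are ± SE) of the listed genes of the FT/TFL1, MADS-box and SBP-box families; diamonds are the 3 chosen genes without a test, filled circles passed limma, open circles were tested and did not pass, and squares lay below the FPKM minimum. ZCN1 is at 1.62 and ZCN3 at 0.95, while ZCN4 and ZCN6 lie below 0.

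**Figure D4:**
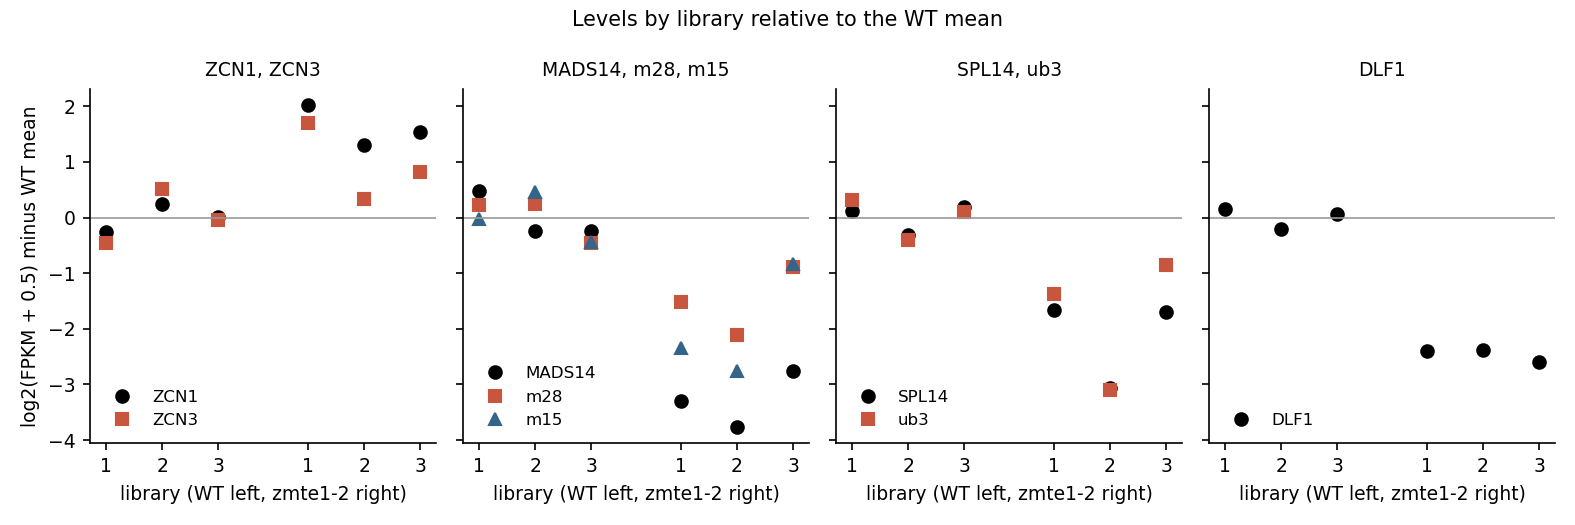
Log2(FPKM + 0.5) minus the WT mean of the gene, in WT libraries 1 to 3 (left of each panel) and zmte1-2 libraries 1 to 3 (right), for ZCN1 with ZCN3, MADS14 with m28 and m15, SPL14 with ub3, and DLF1. In zmte1-2 2 the values of SPL14 and ub3 nearly coincide, and DLF1 varies little between the mutant libraries.

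DLF1 (GRMZM2G067921, chromosome 7), the FD-type partner of the FT/TFL1 family, was at 27.81, 21.62 and 26.06 FPKM in WT and at 4.37, 4.38 and 3.74 FPKM in zmte1-2. The mutant libraries lay close together, and the gene fell from 25.2 ± 3.19 to 4.16 ± 0.367 FPKM (SD, n = 3 each; limma log2 fold change -2.46 with an SE of 0.34, adjusted p = 0.0111). It also passed after rescaling (-1.34, adjusted p = 0.0292). The list of autonomous and chromatin genes, in which DLF1 was placed, held 4 genes. By limma DLF1 was the only 1 of the 4 that fell and 0 rose, beside 34.2% and 6.02% of all tested genes. At an unadjusted p under 0.05, 3 were lower, DLF1 included, and 0 higher, beside 53.5% and 11.1%. The VIN3-like genes, whose relatives in Arabidopsis act in vernalization, did not pass. They stood at a log2 fold change of -1.13 (GRMZM2G046861, limma adjusted p = 0.0589) and -0.91 (GRMZM2G106766, 0.0623), and after rescaling at -0.04 and at 0.08, where the sign of the second turns.

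Of 8 listed photoperiod and clock genes 5 were tested. By limma 3 fell and 0 rose, beside 34.2% and 6.02% of all tested genes. At an unadjusted p under 0.05, 4 were lower and 0 higher, beside 53.5% and 11.1%. All 5 tested genes, and so the 3 that fell by limma, were described as CONSTANS-like proteins. These are relatives of a photoperiod factor that activates FT in Arabidopsis. CONSTANS-LIKE 16 (GRMZM2G041991) was at 14.58, 9.16 and 12.11 FPKM in WT and at 1.83, 0.93 and 1.86 FPKM in zmte1-2 (limma log2 fold change -2.62 with an SE of 0.39, adjusted p = 0.0114; -1.60 and 0.0292 after rescaling). CONSTANS-LIKE 13 (GRMZM5G813532) fell from 5.62 ± 1.20 to 0.973 ± 0.450 FPKM (SD, n = 3 each; -2.08, limma adjusted p = 0.0148; 0.0670 after rescaling). CO5 (GRMZM2G021777) fell from 23.1 ± 4.83 to 8.36 ± 2.22 FPKM (SD, n = 3 each; -1.43, limma adjusted p = 0.0360; -0.29 after rescaling, not passed). CONSTANS-LIKE 3 (GRMZM2G095598) did not pass, at -1.27 with a limma adjusted p of 0.131, and its groups overlapped. The remaining tested gene did not pass either, at -1.39 with a limma adjusted p of 0.0699, and its groups overlapped too.

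The AP2-class list, named for repressors of flowering and of the adult phase, held 2 genes. By limma 0 of 1 tested passed, beside 34.2% lower and 6.02% higher over all tested genes. At an unadjusted p under 0.05 the count was also 0, beside 53.5% and 11.1%. Glossy15 (GRMZM2G160730), which maintains juvenile leaf traits in maize, was at 1.66, 0.49 and 1.39 FPKM in WT and at 0.19, 0.71 and 0.12 FPKM in zmte1-2, overlapped and was not tested. The gene sid1 (sister of indeterminate spikelet1, GRMZM2G176175) was at 1.51, 1.34 and 1.36 FPKM in WT and at 3.29, 1.3 and 3.87 FPKM in zmte1-2. It did not pass as deposited (log2 fold change 0.71, limma adjusted p = 0.154) and passed after rescaling (1.62, adjusted p = 0.0466).

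Of 9 listed genes of inflorescence architecture 3 were tested. By limma 2 fell and 1 rose, beside 34.2% and 6.02% of all tested genes. At an unadjusted p under 0.05, 2 were lower and 1 higher, beside 53.5% and 11.1%. Branched silkless1 (bd1, GRMZM2G307119), which gives spikelet meristems their identity in maize, was at 3.98, 3.65 and 4.52 FPKM in WT and at 0.59, 0.48 and 0.14 FPKM in zmte1-2 (limma log2 fold change -2.36 with an SE of 0.32, adjusted p = 0.0108; -1.57 and 0.0307 after rescaling). A receptor kinase described as FLORAL ORGAN NUMBER1 (AC205471.4_FG008), in rice a regulator of floral meristem size, fell from 10.9 ± 4.97 to 1.02 ± 1.12 FPKM (SD, n = 3 each; -3.03, limma adjusted p = 0.0185; 0.0537 after rescaling). The liguleless2-like gene AC232238.2_FG004 was at 3.01, 5.09 and 3.06 FPKM in WT and at 11.69, 7.88 and 9.79 FPKM in zmte1-2, and rose (1.30, SE 0.38, limma adjusted p = 0.0393; 2.36 and 0.0219 after rescaling). The list was drawn by protein description and also took in a leafy cotyledon gene, which is no inflorescence gene and was not tested.

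Over the 35 genes of all these lists together, 20 were tested, of which 10 fell, 1 rose and 9 did not pass. The median log2 fold change of the 20 was -1.40, beside -1.08 over all tested genes, and 10 of 20 lower stands beside the 34.2% of all tested genes that were lower. The 1 that rose stands beside 6.02%. At an unadjusted p under 0.05 by limma, 15 were lower and 1 higher, beside 53.5% and 11.1% of all tested genes. After rescaling 3 fell and 2 rose, beside 205 and 534 of the 3987 tested genes. The count of lower genes rests on single libraries, as it does over all tested genes. It was 0 without WT 3 or without zmte1-2 1, beside 2 and 1 over all tested genes. Without WT 1 it was 3, beside 148, and without zmte1-2 2 it was 16, beside 1949. Where it was 0, 11 genes were lower at an unadjusted p under 0.05 by limma in either case.

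Pearson correlations on log2(FPKM + 0.5) over the 6 libraries were 0.950 between SPL14 and MADS14, -0.940 between ZCN1 and MADS14 and -0.811 between ZCN1 and SPL14. The points share the genotype difference on which the genes were selected, so these values are a description. The genes most and least alike are given among tested genes with an informative protein description. Most like ZCN1 in pattern were genes described as serine carboxypeptidase-like protein (GRMZM2G159016, r = 0.9963), 3-oxo-Delta(4,5)-steroid 5-beta-reductase (GRMZM2G479340, 0.9961), GSTU6 (GRMZM2G447632, 0.9947) and BAG family chaperone regulator 1 (GRMZM2G079956, 0.9926). Most opposite were secondary wall NAC transcription factor 7 (GRMZM2G440219, r = -0.998) and a CDPK-related kinase (GRMZM2G109843, -0.9975).

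Most like MADS14 were a BTB/POZ protein (GRMZM2G138003, r = 0.9989), a remorin (GRMZM2G084046, 0.9975), a glycosyl hydrolase of family 17 (GRMZM2G152638, 0.9955) and NUTCRACKER (GRMZM2G151309, 0.9955). Most opposite were a Ring zinc finger protein (GRMZM2G016668, -0.9925) and a membrane protein (GRMZM2G055698, -0.9923). Most like SPL14 were a protein similar to SRRM1 (GRMZM2G389881, r = 0.997), argonaute101 (AC189879.3_FG003, 0.9965), the receptor kinase BAM1 (GRMZM2G072569, 0.9942) and a DNA binding protein (GRMZM2G173280, 0.9936). Argonaute101, of the protein family that carries small RNAs, was at 14.39, 12.97 and 14.31 FPKM in WT and at 6.54, 3.73 and 6.98 FPKM in zmte1-2. All 4 genes were lowest in zmte1-2 2, as SPL14 was, which follows from ranking them by likeness to it. A link between argonaute101 and SPL14 was not tested. Most opposite to SPL14 were Endoglucanase 1 (GRMZM2G151257, -0.9994) and SEC22 (GRMZM2G163998, -0.9852).

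The 3 genes lie on different chromosomes, and the listed genes around them differed in direction. Within 1 Mb of ZCN1 there were 9 listed genes, 3 lower and 6 higher in mean, the nearest a cytochrome P450 gene (GRMZM2G424804) at 119 kb with a log2 fold change of 1.55. Within 1 Mb of MADS14 there were 3, all lower, and within 1 Mb of SPL14 there were 4, of which 3 were lower and 1 higher. Most listed genes of the whole table were lower, with a median log2 difference of -1.08 over the 3987 tested genes, so these counts are a description.

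Markers of other tissue differed between the same libraries. The 32 listed leaf photosynthesis genes summed to 345.1 to 1214.3 FPKM in WT and 168.5 to 262.2 FPKM in zmte1-2, with 2 of the genes at 0 in some library, and by limma 12 of 27 tested fell and 0 rose, beside 34.2% and 6.02% of all tested genes, with 21 lower and 0 higher at an unadjusted p under 0.05, beside 53.5% and 11.1%. The 21 jasmonate and wounding genes summed to 624.7, 1852.4 and 1739.6 FPKM in WT 1, 2 and 3 and to 5520.9, 938.8 and 5178.0 FPKM in zmte1-2 1, 2 and 3, with 4 genes at 0 in some library. By limma 1 of 17 tested fell and 0 rose, beside 34.2% and 6.02% of all tested genes. At an unadjusted p under 0.05, 1 was lower and 1 higher, beside 53.5% and 11.1%. The 2 root genes summed to 8.0 to 11.4 FPKM in WT and 13.1 to 33.3 FPKM in zmte1-2. By limma 0 of 1 tested was called, beside 34.2% lower and 6.02% higher over all tested genes. At an unadjusted p under 0.05 the tested root gene was higher (log2 fold change 1.22), beside 11.1% of all tested genes. The sums of the 15 genes of lignified and vascular tissue overlapped, at 325.1 to 405.4 and 278.4 to 500.6 FPKM. Of the 10 tested, 5 fell and 2 rose by limma, beside 34.2% and 6.02% of all tested genes. At an unadjusted p under 0.05, 5 were lower and 5 higher, beside 53.5% and 11.1%. The part of tissue makeup in the differences of ZCN1, MADS14 and SPL14 was not tested.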

How the data were processed

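RNA from maize nodes was sequenced by a company for 3 WT and 3 zmte1-2 libraries. The authors deposited FPKM per library for 5546 genes that they had called between the genotypes at an absolute log2 ratio of at least 1, with columns of their own log2 ratios, p-values and q-values, which were not used. The sources used here name neither aligner, counting method and genome build nor the authors' test, and genes outside the table were not analysed here. Depth is unknown, and counting error could not be given. Extraction reagents differ between the labels and the methods. The libraries are titled Node1 to Node3 without saying what a number marks, and the methods name 3 nodes from the last brace root. A number could therefore mark a node position. The numbers were taken as replicates, and each SD, SE and limma p rests on that.

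Fold changes are differences of mean log2(FPKM + 0.5). Other genes were tested with limma (version 3.58.1, R 4.3.3), two-sided, on all 6 libraries with a variance trend over mean level in eBayes, where FPKM was at least 1 in at least 3 libraries (3987 genes tested, 1559 not), with Benjamini-Hochberg adjustment over the tested genes. Their SE is moderated, whereas the SE of ZCN1, MADS14 and SPL14 pools the spread of the groups. The fit was tested on simulated data with independent noise and no selection of genes on the contrast. That run checks the fitting step only and cannot give the share of false calls here. Median-of-ratios rescaling, other pseudocounts and minimums, no trend, a replicate block and leaving out libraries were the alternatives.

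The 3 genes and the lists were chosen with earlier results of these data known. Lists were drawn from protein descriptions and transcription factor families and leave out the 3 genes, and the tga1 genes stand in 2 lists. Genes were named by rule: in each list the 3 most abundant and the 2 with the smallest p, and for each of the 3 genes the 4 most and 2 least alike by Pearson correlation. Likeness was ranked among tested genes only, and genes with descriptions such as unknown, uncharacterized or hypothetical were left out. ZAG5, which was above WT without overlap, the nearest neighbour of ZCN1 and the leafy cotyledon gene were named after their values were seen. RefSeq (assembly Zm-B73-REFERENCE-NAM-5.0) matched 31 of 38 genes of the lists and was used for names only.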

Additional observations from a re-analysis of the deposited data

How the results depend on the processing

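ZCN1 stayed higher and MADS14 and SPL14 stayed lower in zmte1-2 under each alternative run on them. MADS14 stood at -4.01 with a pseudocount of 0.1, at -2.75 with 1, and at -2.79 without WT 1 and zmte1-2 2, an alternative chosen after seeing the data. Median-of-ratios rescaling gave 2.79 for ZCN1, -2.40 for MADS14 and -1.06 for SPL14. Leaving out single libraries gave 1.42 to 1.78 for ZCN1, -3.53 to -3.03 for MADS14 and -2.38 to -1.68 for SPL14.

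Over all tested genes 1363 were lower and 240 higher. Rescaling gave 205 lower and 534 higher, and in the lists 3 lower and 2 higher in place of 10 and 1. A minimum of 1 FPKM in all 6 libraries gave 6 lower among 11 tested list genes, beside 963 among all 2380 tested. Leaving out single libraries gave 1 to 1949 lower and 1 to 805 higher genes, and 0 to 16 lower and 0 to 3 higher in the lists. The lowest counts came without zmte1-2 1 (1 lower, 1 higher) or WT 3 (2 and 1), followed by WT 1 (148 and 10) and zmte1-2 3 (701 and 74), and the highest without zmte1-2 2. In the lists 0 were higher without WT 1, WT 3, zmte1-2 1 or zmte1-2 3, where limma gave 1, 0, 1 and 1 at an unadjusted p under 0.05, and 2 were higher without WT 2. Without both WT 1 and zmte1-2 2, 755 genes were higher, and 2 in the lists. Each cause was not tested, beyond the fewer libraries and genes.

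With the replicate number as a block, 1 gene was lower and 1 higher, and 0 and 0 in the lists (limma; 11 and 1 at an unadjusted p under 0.05). Deviations of same-numbered libraries from their genotype means correlated at -0.305, -0.398 and 0.406. Differently numbered libraries ran from -0.526 to 0.517, the highest between WT 1 and zmte1-2 2. Deviations from a mean of 3 libraries depend on each other, so these values cannot decide whether the numbers pair the samples. Unknown depth limits what can be said of genes below the FPKM minimum.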
